A study of Mus musculus with 2 samples.

Results

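Committed and newly formed oligodendrocyte precursors stand between dividing precursors and mature oligodendrocytes. Cells of the mouse habenula were selected for this stage from single-cell counts by 4 marker genes. A cell needed at least 2 unique molecular identifiers (UMIs) from Enpp6, Gpr17, Bmp4 and Neu4 together. It also needed 0 UMIs of Pdgfra, the receptor that marks dividing precursors. The chosen cells are called committed cells below, a name for the selection. Some of them had myelin transcript in the range of precursors or of mature cells. A cell also had to hold 1000 UMIs or more and between 500 and 6000 genes, with mitochondrial transcripts at no more than 20% of its UMIs. Less than 0.5% of its UMIs could come from the neuronal genes Snap25, Syt1 and Meg3, and none from the epithelial genes Epcam, Krt8 and Krt14. These rules kept 224 cells of 9969 accepted cells, 147 in the control library and 77 in the foot shock library. The levels of the 4 marker genes and of Pdgfra therefore chose the cells and are given as a description.

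The series characterised single cells of the habenula of adult male C57BL/6 mice aged 50 to 55 postnatal days. All mice were handled for 5 min a day over 7 days. Foot shock mice were also habituated to the chamber for 10 min a day over 7 days and then received 30 shocks of 0.3 mA and 1 s in a 60 min session, after which tissue was taken at once. Control mice came straight from the home cage, so the groups differed in chamber exposure as well as in shock. Each library pooled 4 mice, so each group has 1 library and no replicate. Perfusion and slicing of both groups used a solution with the activity blockers TTX, APV and DNQX, the transcription inhibitor actinomycin and the translation inhibitor anisomycin, and habenula punches were then digested with pronase and cleared of dead cells. All intervals below are 95% intervals that cover counting error only, not the spread between animals.

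In the oligodendrocyte lineage, dividing precursors express Pdgfra and the proteoglycan Cspg4. A precursor that commits to differentiation lowers these genes, passes through a short stage marked by the receptor Gpr17 and the secreted factor Bmp4, then expresses Enpp6 and the first myelin proteins, and ends as a mature oligodendrocyte that maintains myelin. In the adult brain such intermediate cells are scarce, and they mark places where new oligodendrocytes are being made.

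For comparison, 201 precursor comparison cells (153 control, 48 foot shock) passed the same quality filters with at least 2 Pdgfra UMIs, and 1694 mature comparison cells (959 and 735) had 0 UMIs of Pdgfra and of the 4 marker genes and at least 3 UMIs of Mog, Mag, Ermn and Opalin. The libraries held 23095501 and 22189951 UMIs in all, and 36 accepted barcodes occurred in both libraries, of which 0 were committed cells. Median depth was 2476 UMIs per committed cell in control and 2200 in foot shock, against 1239 and 1186 in precursor comparison cells and 2070 and 1840 in mature comparison cells. Scrublet called 3 control committed cells and 0 foot shock ones as doublets, and none was removed. The precursor comparison cells were not pure: 7 of 153 control and 3 of 48 foot shock cells held 3 or more UMIs of the 7-gene fibroblast list. Its genes were all at 0 in the committed cells of both libraries. The 12-gene astrocyte list reached 3 or more UMIs in 44 of the control and 12 of the foot shock precursor comparison cells. What those cells contribute to the precursor levels was not tested.

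Committed cells made up 2.87% (exact Clopper-Pearson interval 2.43 to 3.36) of accepted cells in control and 1.59% (1.26 to 1.98) in foot shock. As a share of the 3 lineage groups together they were 11.7% (9.95 to 13.6) of 1259 cells and 8.95% (7.13 to 11.1) of 860 cells. The first pair of intervals did not overlap and the second pair did. When 2000 UMIs per cell were required, the lineage shares were 12.6% and 13.2%, with foot shock the higher. Precursor comparison cells differed in the same direction, at 2.98% (2.53 to 3.49) and 0.992% (0.732 to 1.31) of accepted cells. With 1 pool of animals per group, no test of these shares was possible.

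Gpr17, a G protein-coupled receptor of the committed stage, was the marker seen in most of the chosen cells, with at least 1 UMI in 120 of 147 control and 64 of 77 foot shock cells. Neu4, a sialidase gene on chromosome 1 (94020451 to 94028334, plus strand, mm10), was seen in 82 and 38 cells. Enpp6, a choline-specific phosphodiesterase gene on chromosome 8 (46986887 to 47096762, plus strand), was seen in 76 and 42. Bmp4, a secreted ligand gene on chromosome 14 (46383520 to 46390669, minus strand), was seen in 41 and 24. All 65 cells with a Bmp4 UMI also had a Gpr17 UMI, and 56 of them also had Neu4, whereas 37 cells had Enpp6 with none of the other markers. Of the 224 cells, 77 showed 1 marker gene, 65 showed 2, 48 showed 3 and 34 showed all 4. The combined marker count per cell had a median of 7 UMIs in both libraries, with maxima of 55 in control and 28 in foot shock.

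After each cell was thinned to 1000 UMIs, the expected share of control cells with a UMI was 73.1% for Gpr17 (81.6% unthinned), 40.9% for Neu4 (55.8%), 31.7% for Enpp6 (51.7%) and 16.4% for Bmp4 (27.9%). In foot shock the thinned shares were 73.5%, 35.2%, 34.7% and 21.4% (83.1%, 49.4%, 54.5% and 31.2% unthinned). Cells that should lack these genes were taken as accepted cells with at least 10 UMIs of the microglia and macrophage list, 137 in control at a median of 1502 UMIs and 86 in foot shock at 1384. In those cells each of the 4 genes was seen in 0 or 1 cell of a library. The shares in committed cells follow from their selection, and the low shares in the other cells hold for microglia and macrophage barcodes alone. How much stray marker RNA reached oligodendrocyte barcodes was not tested.

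The edge of the selection was not sharp on the mature side. The 52 cells just inside it, with exactly 2 marker UMIs, had a median of 5.38% of UMIs from 8 myelin genes, and the 163 cells just outside, with exactly 1, had 5.70%. On the precursor side, 53 cells had enough marker UMIs but 1 Pdgfra UMI, and their myelin median was 0.073% with 1.23% of UMIs from the precursor gene list. The label described the middle of the chosen range better than its edges, since cells near the lower marker limit carried as much myelin transcript as mature oligodendrocytes.

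Committed cells spanned almost the whole range of myelin transcript between the comparison groups. The share of UMIs from 8 genes of major myelin proteins, among them Mbp, Mobp, Mog, Mag, Cnp, Mal and Cldn11, had a median of 2.43% over the control cells, which ranged from 0 to 11.5%, and 3.07% over the foot shock cells, which ranged from 0 to 11.1%. Precursor comparison cells had medians of 0.0758% and 0.084%, and mature comparison cells 5.32% and 5.51%. In control, 37 of 147 committed cells lay at or under the 90th percentile of precursors, 65 lay between the groups and 45 lay at or over the 10th percentile of mature cells. In foot shock these counts were 7, 42 and 28 of 77.

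**Figure D1:**
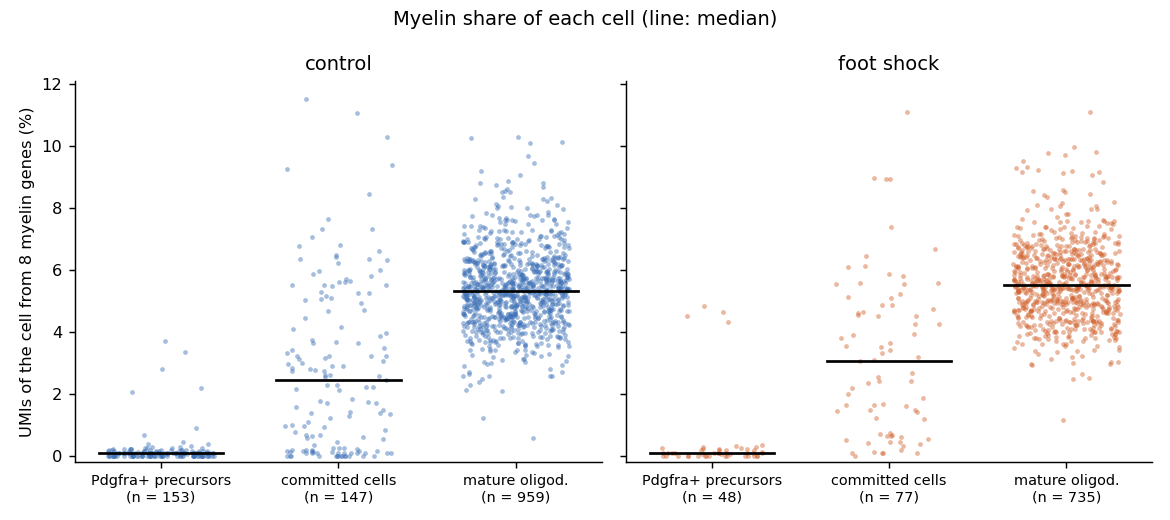
Percent of each cell's UMIs from 8 myelin genes (vertical axis) in precursor comparison cells, committed cells and mature comparison cells of the control and foot shock libraries; each point is a cell and the line is the median. Committed cells fill the gap between the other groups, with medians of 2.43% and 3.07%.

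To follow the transition, the 224 cells were ranked by this myelin share and cut into 3 bins of 75, 74 and 75 cells, at 1.19% and 3.88%. The bins are ranges of a score, not cell types, and the 8 ranking genes are not a finding. Other genes that vary with myelin transcript follow the bins by their making, so comparisons between bins are a description. Control cells fell 54, 48 and 45 into the earliest, middle and latest bins, and foot shock cells 21, 26 and 30. The earliest bin held 36.7% (28.9 to 45.1) of control and 27.3% (17.7 to 38.6) of foot shock committed cells, so the intervals overlapped. Depth differed along the order, with median UMIs of 1204, 2927 and 3343 in control and 1208, 2022 and 3214 in foot shock. Levels below are counts per 1000000 UMIs (CPM), summed over the cells of a bin, given in the order precursors, earliest, middle, latest and mature cells where 5 values stand together.

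The 4 selection genes did not peak together. Their 0 in mature comparison cells was set by how those cells were chosen. Gpr17 stood at 1251, 4002, 4271, 503 and 0 CPM in control and at 1014, 5626, 4114, 976 and 0 CPM in foot shock, with its high stretch in the earliest and middle bins. Neu4 followed the same course, at 509, 881, 783, 42.8 and 0 CPM in control. Bmp4 was highest in the middle bin, at 619 CPM (496 to 764) in control and 551 CPM (366 to 797) in foot shock. It stood at 112 and 205 CPM in the earliest and 10.7 and 56.3 CPM in the latest bin. Enpp6 was shifted later, with 84.0, 648 and 589 CPM over the 3 control bins and 102, 551 and 554 CPM in foot shock. Over all committed cells the foot shock to control ratio was 1.04 (95% interval 0.932 to 1.16) for Gpr17, 0.897 (0.677 to 1.18) for Neu4, 0.929 (0.717 to 1.20) for Enpp6 and 0.881 (0.594 to 1.29) for Bmp4, and each interval held 1.

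**Figure D2:**
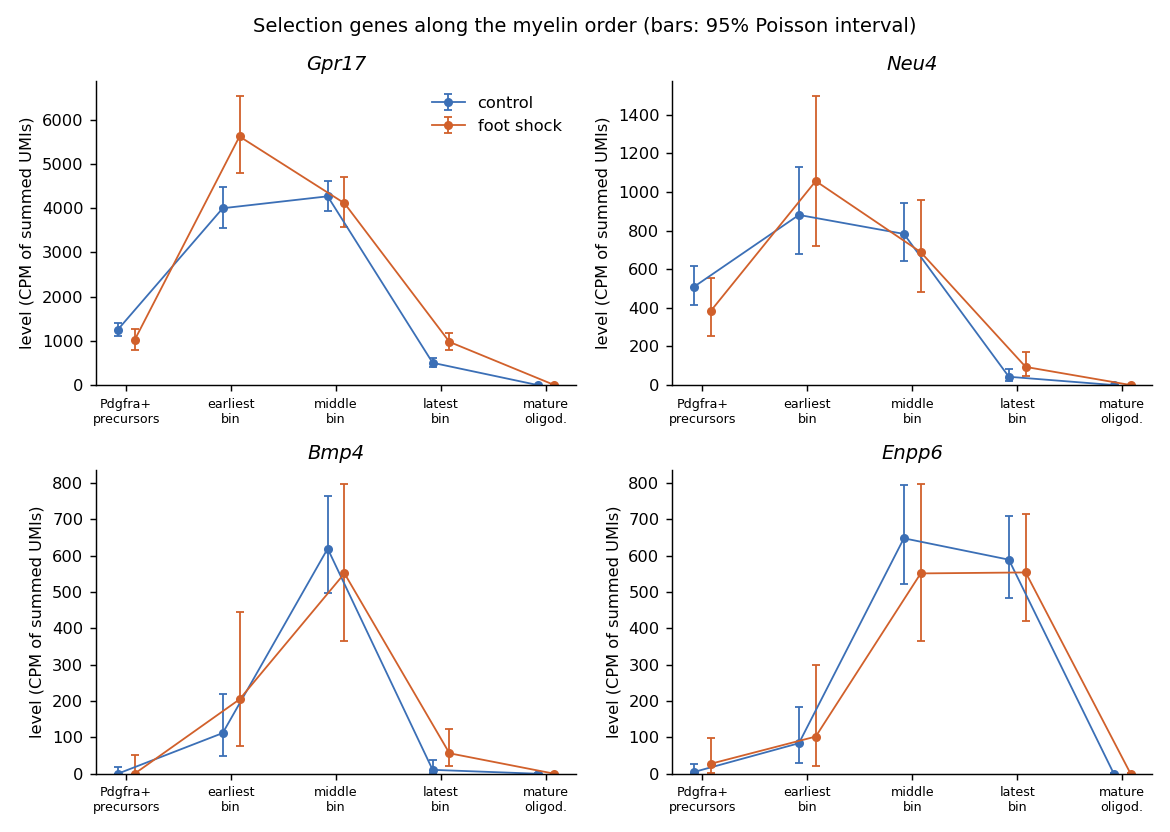
Levels of the 4 selection genes (CPM of summed UMIs) in precursor comparison cells, the 3 bins of committed cells and mature comparison cells, control and foot shock side by side, with 95% Poisson intervals. Gpr17 and Neu4 are high in the earliest and middle bins, Bmp4 peaks in the middle bin and Enpp6 is high in the middle and latest bins of both libraries.

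The earliest bin still held precursor genes near their precursor level. Ptprz1, a receptor phosphatase of precursors, stood at 2107 CPM in control precursors, 1371 CPM in the earliest bin and 271 CPM in the middle bin. Cspg4, the NG2 proteoglycan, stood at 333 and 266 CPM in these first groups and was listed at 0 UMIs in the middle bin of both libraries. The calcium channel subunit gene Cacng4 (923, 769.5 and 199 CPM) and the secreted C1ql1 (804, 742 and 199 CPM) took the same course. Pdgfra itself was set to 0 by the selection, and at about 1200 UMIs per cell a missing UMI does not show a missing transcript.

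The precursor list as a whole supplied 1.26% of UMIs in control precursors, then 1.22%, 0.621% and 0.131% over the bins and 0.0409% in mature cells. In foot shock the series was 1.07%, 1.04%, 0.543%, 0.183% and 0.0328%. Of its 16 genes measured in both bins and libraries, 15 were at least 2-fold lower in the latest than in the earliest bin in both libraries, where 423 of 3131 genes (13.5%) were. The matrix proteins of the list did not all follow that order. Tnr, which encodes tenascin-R of the extracellular matrix, stood at 923, 1609, 2499, 584 and 4.70 CPM in control and 699, 1671, 2382, 769.8 and 4.75 CPM in foot shock, highest in the middle bin. Vcan, which encodes versican, stood at 616 and 548 CPM in the earliest and middle control bins and at 42.8 CPM in the latest.

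Among the 620 genes with enough UMIs in both libraries to compare bins, 71 (11.5%) were at least 2-fold lower and 114 (18.4%) at least 2-fold higher in the latest than in the earliest bin in both libraries. Among the 10 with the lowest ratio of latest to earliest bin were 3110035E14Rik, Rgcc, a regulator of cell cycle kinases, Tsc22d1 and Ntm, which encodes the adhesion molecule neurotrimin. Rgcc stood at 784, 235 and 0 CPM over the control bins and at 852, 315 and 18.8 CPM in foot shock. Ntm stood at 532, 92.5 and 10.7 CPM in control. Neu4, Meg3 and the factors Nkx2-2 and Sox6 were also in the group, with Ptprz1. Neu4 and Meg3 are genes of the selection and were not left out of the 620 or the 71. These counts and the places of Neu4 and Meg3 therefore draw in part on values that chose the cells.

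At the other end, the latest bin held genes of the mature cell. Trf, which encodes transferrin, stood at 85.6, 0, 21.4, 867 and 1335 CPM in control and 274, 0, 78.7, 929 and 1577 CPM in foot shock. Fth1, the ferritin heavy chain that stores iron, stood at 3287, 1329, 1573, 25803 and 43798 CPM in control. Ermn, which encodes the oligodendrocyte cytoskeletal protein ermin, Car2, a carbonic anhydrase, and Apod, a lipid-binding apolipoprotein, were at 728, 841 and 439 CPM in the latest control bin and at 0 to 42.0 CPM in the earliest. The chloride cotransporter gene Slc12a2, the tubulin-binding Tppp and Gm15440 were also among the 10 genes with the highest ratio of latest to earliest bin. Of 27 measured genes of the late myelin list, 21 were at least 2-fold higher in the latest bin in both libraries. Over all genes, 355 of 3131 (11.3%) were. The bins were cut by myelin transcript, so this count describes that order and gives it no support.

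Nfasc and Arpc1b, the other 2 of these 10 genes, were higher in the latest bin than in mature cells in both libraries. So were Gm15440 (921 against 221 CPM in control), Slc12a2 (857 against 601 CPM) and Tppp (664 against 469 CPM). Nfasc, which encodes neurofascin of the junction between glia and axon, stood at 99.9, 196, 2008, 3057 and 311 CPM in control and 137, 68.2, 1713, 2675 and 318 CPM in foot shock. Arpc1b, a subunit of the Arp2/3 complex that nucleates branched actin, stood at 33.3, 14.0, 356, 1279.7 and 180.3 CPM in control and 82.2, 0, 354, 1211 and 189 CPM in foot shock. Tmem141 had the same shape, with 1039 and 591 CPM in the latest bins against 84.0 and 60.4 CPM in mature cells. The smaller genes of this kind were Rras2, a Ras-related GTPase (193 against 2.35 CPM in control), Tmem2 (193 against 0.939 CPM), Fam107b (187 against 11.7 CPM) and Prom1 (171 against 1.41 CPM).

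Between these ends lay a set of genes that stood higher in committed cells than on either side. Over all committed cells, 62 of 628 genes with at least 40 UMIs in the committed cells of each library were at least 2-fold higher than in both comparison groups in both libraries, and 60 of them had no part in the selection. The 15 furthest by their smallest ratio were Bmp4, 9530059O14Rik, Enpp6, Parvb, Pik3r3, Rasgef1b, Pak4, Pdcd4, Fyn, Mpzl1, Rnd2, Nfasc, Epb41l2, Tmem108 and Tmem141. The minimum was set on committed cells alone, so genes low in them could not enter the 628. Because the cells were also chosen by marker genes that these genes may follow, this is a description of the selected cells and has no test.

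Fyn, the Src-family kinase that acts in the shape change of differentiating oligodendrocytes, stood at 209, 1301, 2997, 573 and 44.1 CPM in control and 137, 2182, 2736, 882 and 41.4 CPM in foot shock. Over all committed cells it was 7.44 (5.48 to 10.3) times the level of precursors and 35.3 (28.4 to 44.3) times that of mature cells in control. Pdcd4, an inhibitor of translation initiation, stood at 166, 364, 3567, 482 and 83.1 CPM in control, with the peak in the middle bin. The long noncoding RNA gene 9530059O14Rik stood at 9.51, 266, 1004, 493 and 34.7 CPM in control and 0, 273, 1043, 488 and 32.6 CPM in foot shock. These genes shared a maximum in the middle bin in control, the bin in which Bmp4 was highest.

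Several of these 15 genes encode proteins that act on the cytoskeleton. Rnd2, a small GTP-binding protein, stood at 105, 154, 1096, 541 and 59.6 CPM in control and 13.7, 205, 906, 892 and 69.9 CPM in foot shock. Epb41l2, a membrane-skeleton protein, and Pak4, a serine/threonine kinase, stood at 1481 and 634 CPM in the middle control bin and at 81.2 and 13.1 CPM in mature cells. Parvb, which encodes an adaptor between integrins and actin, and Pik3r3, a regulatory subunit of phosphoinositide 3-kinase, were high in both the middle (484 and 420.0 CPM) and the latest control bin (246 and 375 CPM). No enrichment of these functions was tested.

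**Figure D3:**
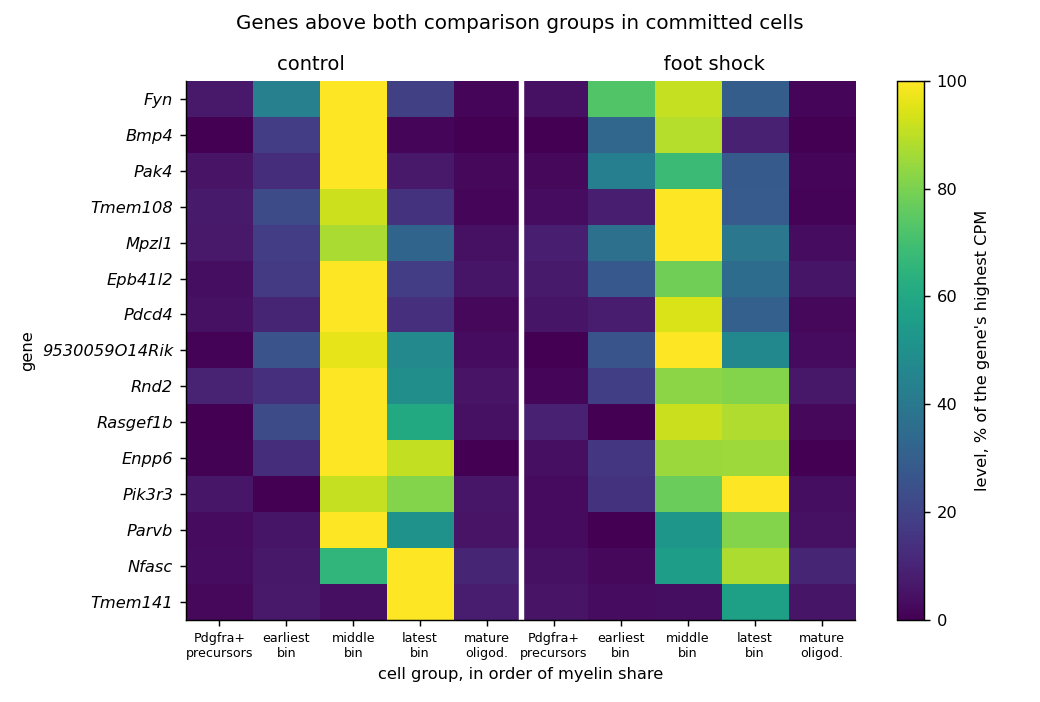
Levels of the 15 genes furthest above both comparison groups, as a percent of each gene's highest CPM (colour), in the 5 cell groups of control (left) and foot shock (right). Most peak in the middle bin, Nfasc and Tmem141 peak in the latest bin of both libraries, and Enpp6, Parvb and Pik3r3 peak in the middle bin of control and the latest bin of foot shock.

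The commitment list held 39 genes outside the selection. Of 34 measured against precursors, 28 were at least 2-fold higher in committed cells in both libraries and 1 was lower, where 378 of 4405 genes at the same minimum of 10 UMIs (8.58%) were higher and 344 (7.81%) lower. Against mature cells 29 of 37 were higher and 2 lower, where 939 of 8744 genes (10.7%) were higher and 359 (4.11%) lower. Members include Bcas1, which marks early myelinating cells (190.3, 699.6, 1281, 278 and 138 CPM in control), Itpr2, an endoplasmic calcium channel (109, 308, 584, 225 and 15 CPM), and Sirt2, a tubulin deacetylase (304, 881, 2969, 1633 and 343 CPM). At the minimum of 40 UMIs, 159 of 936 genes (17%) were at least 2-fold higher than in precursors and 59 (6.3%) lower, and 364 of 4712 (7.72%) were higher than in mature cells and 231 (4.9%) lower. The list was drawn up with earlier results of these data known, so its counts describe the cells and support nothing further.

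Transcription factors of the lineage followed distinct courses. Nkx2-2, a homeodomain factor of commitment, stood at 171, 546, 669, 42.8 and 60.6 CPM in control and 109.6, 955, 453, 56.3 and 32.6 CPM in foot shock. Tcf7l2, an effector of Wnt signalling that is prominent at the onset of differentiation, stood at 285, 364, 1545, 910.3 and 108 CPM in control and 301, 511, 1417, 1117 and 122 CPM in foot shock, 9.63 (8.18 to 11.4) times the mature level in control committed cells. Sox4 stood at 390.1, 504, 1773, 369 and 13.1 CPM in control and 274, 170.5, 1279.5, 666 and 8.15 CPM in foot shock and was thus near absent from mature cells. Mycl was seen in committed cells and precursors but at 0 UMIs in mature cells of both libraries, with 168, 356 and 21.4 CPM over the control bins.

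Myrf, the factor that switches on myelin genes, stood at 33.3, 28, 363, 562 and 378 CPM in control and 13.7, 102, 236, 432 and 319 CPM in foot shock, with its highest level in the latest bin of both libraries. Nkx6-2 came later, at 19.0, 0, 28.5, 284 and 339 CPM in control. The general lineage factors Olig1 and Sox10 were present throughout, with Sox10 at 756, 867, 889.9, 659 and 420.2 CPM in control, while Olig1 stood at 1784, 1889, 683, 776 and 619 CPM, lower from the middle bin on. Of 32 measured factors, 7 were at least 2-fold higher and 8 lower than in precursors in both libraries, and 11 of 35 were higher and 1 lower than in mature cells. Over all genes these shares were 8.58% and 7.81% against precursors and 10.7% and 4.11% against mature cells.

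Signalling genes of the BMP, Wnt and Notch pathways were sparse, and 13 of 33 could be compared with precursors: 2 were at least 2-fold higher and 6 lower in both libraries, where 8.58% and 7.81% of all genes were. Smad7, an intracellular inhibitor of BMP and TGF-beta signalling, stood at 33.3, 42.0, 128, 610.4 and 329 CPM in control and 68.5, 68.2, 118, 535 and 410.2 CPM in foot shock, so it was high in the latest bin, after the Bmp4 peak. Hes5, a target of Notch, stood at 309, 336, 21.4, 5.35 and 21.6 CPM in control, and the BMP target Id2 at 247, 112, 57.0, 16.1 and 15.5 CPM. Axin2, a feedback target of Wnt signalling, was low everywhere, with its largest control value of 139.9 CPM in the earliest bin.

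Cell cycle genes gave little signal in committed cells. The 24-gene cell cycle list supplied 0.1% and 0.106% of UMIs in precursors and 0.0103% and 0.00964% in committed cells. All 3 list genes that could be compared were at least 2-fold lower than in precursors in both libraries, where 7.81% of all genes were. Top2a, a topoisomerase of dividing cells, was seen in 9 of 153 control and 4 of 48 foot shock precursors, and in 1 of 147 and 0 of 77 committed cells.

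Genes of cholesterol synthesis supplied more of the UMIs in the middle and latest bins than in precursors or mature cells. The 24-gene list supplied 0.0809%, 0.0979%, 0.276%, 0.229% and 0.127% of UMIs along the order in control and 0.0987%, 0.0716%, 0.209%, 0.264% and 0.118% in foot shock. Hmgcs1, which encodes a synthase early in the pathway, was 3.61 (2.22 to 6.18) times the precursor level and 1.64 (1.34 to 2.00) times the mature level in control, and 3.69 (1.86 to 8.35) and 2.21 (1.71 to 2.81) times in foot shock. Of the list, 6 of 14 genes were at least 2-fold higher than in precursors and 7 of 24 higher than in mature cells in both libraries, with 0 lower in either comparison. Of the sphingolipid and fatty acid genes, 5 of 16 were higher than in precursors, and 0 higher and 2 of 18 lower than in mature cells. The shares of all genes were 8.58% higher than in precursors, and 10.7% higher and 4.11% lower than in mature cells.

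Channels and receptors split into genes of the earlier and of the later bins. Gria2, an AMPA receptor subunit, stood at 894, 1231, 1338, 85.7 and 46.0 CPM in control and 959, 750.2, 1161, 244 and 34.0 CPM in foot shock, high up to the middle bin. Slc1a1, a neuronal-type glutamate transporter gene, stood at 105, 406, 669, 294 and 4.23 CPM in control, with its peak in the middle bin. Grin3a, an NMDA receptor subunit, stood at 266 CPM in the earliest and 28.5 CPM in the middle control bin. The potassium channel gene Kcna1 and the lysophosphatidic acid receptor gene Lpar1 were at 391 and 455 CPM in the latest control bin, against 658 and 357 CPM in mature cells. Against precursors, 12 of 23 measured channel and receptor genes were at least 2-fold lower and 5 higher in both libraries, where 7.81% and 8.58% of all genes were.

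Foot shock was then compared with control over all committed cells, as the ratio of summed levels with exact conditional intervals. Of 2502 genes with at least 40 UMIs over both libraries, 16 (0.639%) were at least 2-fold higher and 83 (3.32%) at most 0.5-fold in foot shock, 99 (3.96%) in either direction. TMM scaling, which corrects for composition, gave 26 and 64, and removal of 10% free RNA gave 46 and 115. At the lower minimum of 10 UMIs used for lists, 293 of 7168 genes (4.09%) were at least 2-fold higher and 851 (11.9%) at most 0.5-fold. There the intervals of 175 (2.44%) lay above 1 and those of 309 (4.31%) below 1, with a median log2 ratio of -0.07.

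The heat shock and glucocorticoid lists had the highest medians among the lists with at least 10 measured genes. Heat shock genes encode chaperones that protect proteins, and all 10 were measured, with a median log2 ratio of 0.63. Of these, 3 were at least 2-fold higher and 8 had intervals above 1, where 4.09% and 2.44% of all genes did. Dnajb1, a co-chaperone of Hsp70, stood at 62.7 CPM (40.6 to 92.6) in control and 219.7 CPM (158 to 298) in foot shock, a ratio of 3.50 (95% interval 2.08 to 6.01). The inducible Hsp70 genes Hspa1a and Hspa1b had ratios of 2.51 (1.25 to 5.11) and 6.76 (2.60 to 20.7) from 17 against 20 and 6 against 19 UMIs. These paralogs are nearly identical, so how the counting divided their reads is uncertain. Hspe1, a mitochondrial chaperonin, had a ratio of 1.58 (1.18 to 2.12), and the lowest of the list was Hspd1 at 1.02 (0.566 to 1.77).

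In the earliest, middle and latest bins the heat shock median was 0.86 (8 genes), 0.82 (8) and 0.44 (10), and it was 0.40 (8) in precursors and 0.26 (10) in mature cells. Over all measured genes the medians of these 5 groups, in the same sequence, were 0.00, 0.01, -0.07, -0.06 and -0.14. Dnajb1 was higher in foot shock in each bin, with ratios of 21.9 (3.04 to 961), 3.16 (1.00 to 10.2) and 2.48 (1.28 to 4.91). The earliest value rests on 1 control UMI.

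The median log2 ratio of the glucocorticoid-induced genes was 0.67 for the 12 measured of 15. Of these, 2 were at least 2-fold higher and 4 had intervals above 1, where 4.09% and 2.44% of all genes did. The metallothionein gene Mt2, which encodes a metal-binding protein, was the highest of those with at least 20 UMIs, at 125 CPM (93.1 to 165) and 327 CPM (250.0 to 419.8), a ratio of 2.61 (95% interval 1.76 to 3.87). Ddit4, an inhibitor of mTOR signalling, had a ratio of 2.28 (1.49 to 3.48), Mt1 one of 1.47 (1.25 to 1.72) and Sgk1, a serum and glucocorticoid regulated kinase, one of 1.86 (1.42 to 2.43). Tsc22d3, a classical glucocorticoid target, was the lowest of them at 0.657 (0.257 to 1.49) from 26 and 8 UMIs. The Ddit4 ratio was 1.46 (0.227 to 7.52) in the earliest, 0.922 (0.161 to 3.69) in the middle and 2.36 (1.46 to 3.85) in the latest bin, 5.35 (1.98 to 15.8) in precursors and 3.93 (3.29 to 4.70) in mature cells.

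Free RNA, summed over barcodes of 10 to 100 UMIs, held a larger share of the glucocorticoid list than committed cells. The list supplied 0.437% of free UMIs in control and 0.626% in foot shock, against 0.195% and 0.308% in committed cells. Most of this was metallothionein, with Mt1 at 3127 and 4194 CPM and Mt2 at 822 and 1357 CPM in the free RNA of control and foot shock, above both levels of committed cells. For the heat shock list the free shares were 0.293% and 0.323%, against 0.208% and 0.305% in committed cells. With 10% free RNA subtracted, the medians were 0.60 for the glucocorticoid and 0.69 for the heat shock list, and the part of free RNA beyond that was not tested.

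**Figure D4:**
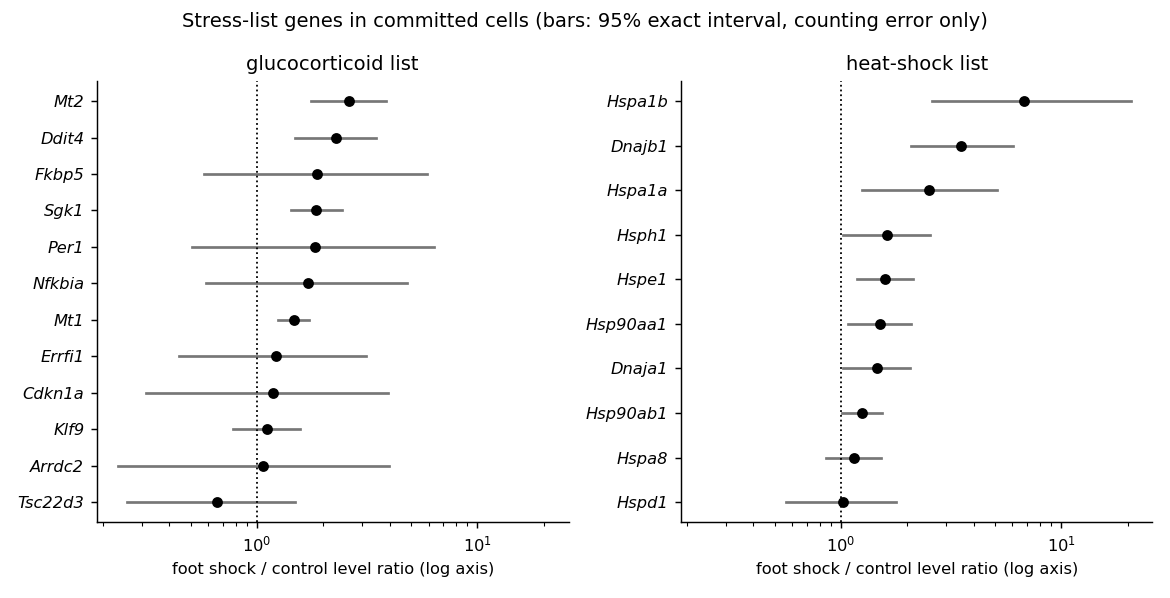
Ratio of foot shock to control levels in committed cells (log axis) for the measured genes of the glucocorticoid and heat shock lists, with exact 95% intervals for counting error; the dotted line marks equal levels. All 10 heat shock genes lie at or above 1, with Dnajb1 at 3.50, and Mt2 leads the glucocorticoid genes at 2.61.

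Sgk1 (chromosome 10, 21882184 to 21999903, plus strand, mm10) had a different course along the lineage in the 2 libraries. In control it stood at 80.9, 182, 626, 118 and 71.4 CPM along the order, so it was highest in the middle bin, where it was seen in 32 of 48 cells. In foot shock it stood at 109.6, 409, 728, 544 and 1376 CPM. The foot shock to control ratio was 1.36 (0.506 to 3.31) in precursors, 2.25 (0.938 to 5.35) in the earliest bin, 1.16 (0.77 to 1.73) in the middle bin, 4.62 (2.79 to 7.93) in the latest bin and 19.3 (16.3 to 22.9) in mature cells. The interval held 1 in precursors and in the earliest and middle bins, and the highest ratio was that of mature cells.

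After thinning to 1000 UMIs, Sgk1 was expected in 40.8% of middle-bin control cells and 42.1% of those in foot shock (66.7% and 53.8% unthinned, median depth 2927 and 2022 UMIs). In mature cells the thinned shares were 6.99% and 71.0% (13.7% and 87.1% unthinned). Cells with at least 10 microglia and macrophage UMIs, at median depths of 1502 and 1384 UMIs, gave 9.03% and 14.0% thinned (13.1% and 19.8% unthinned). Free RNA held 17.2 CPM of Sgk1 in the control library and 104 CPM in the other. Over all committed cells, control Sgk1 was 4.32 (3.38 to 5.52) times the mature level and foot shock Sgk1 0.417 (0.34 to 0.506) times.

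The Sgk1 ratio of the latest bin varied with the rule for committed cells and with where the bins were cut. Cells of the same bin with 3 or more marker UMIs gave 3.49 (1.96 to 6.46), an alternative chosen after seeing the data. When the bins were also cut anew among the cells left, the ratio was 1.81 with 3 marker UMIs and 1.21 with 2 marker genes required. TMM scaling moved all log2 ratios by -0.29 in the earliest, -0.17 in the middle and 0.14 in mature cells, and Sgk1 in the middle bin then stood at 1.04.

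Mt2 had the opposite arrangement. Its ratio was 7.04 (4.44 to 11.5) in precursors, 2.90 (1.56 to 5.45) in the earliest, 4.79 (2.45 to 9.73) in the middle and 1.25 (0.498 to 3.03) in the latest bin, and 2.23 (1.92 to 2.60) in mature cells. In foot shock it stood at 904, 852, 512, 93.9 and 303 CPM along the order and in control at 128, 294, 107, 75 and 136 CPM. Mt1 followed with ratios of 3.82 (3.03 to 4.82), 2.65 (1.82 to 3.85), 1.92 (1.39 to 2.64) and 1.01 (0.804 to 1.26) up to the latest bin. In the latest bin the Mt2 interval held 1 while the Sgk1 interval did not. Whether the ratios of these genes differ between bins was not tested. Foot shock precursors also held the microglia and macrophage list at 630 CPM, 43 of its 46 UMIs in 1 cell, against 19.0 CPM in control. They held the astrocyte list at 2247 CPM, against 1684 CPM in control precursors. The part of cells with such genes in the precursor ratios was not tested.

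**Figure D5:**
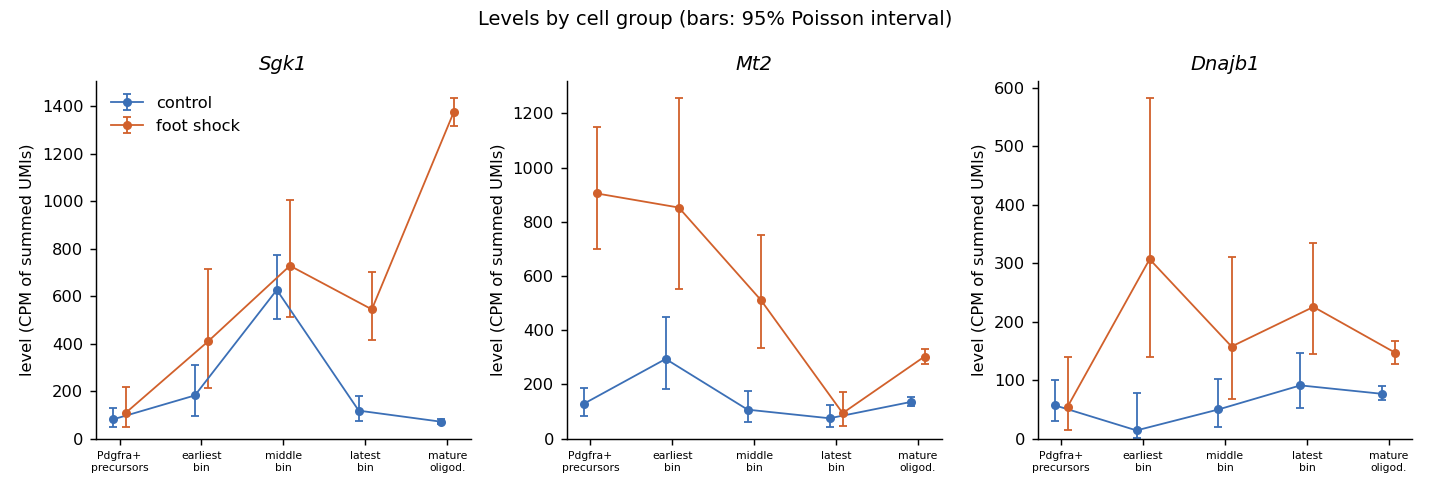
Levels of Sgk1, Mt2 and Dnajb1 (CPM of summed UMIs) in the 5 cell groups of control and foot shock, with 95% Poisson intervals. Sgk1 meets between libraries in the middle bin and is far apart in mature cells, Mt2 is apart from precursors to the middle bin and meets in the latest bin, and Dnajb1 is higher in foot shock in all 3 bins.

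Mitochondrially encoded transcripts had a median log2 ratio of 0.21 over 13 genes, 0 past 2-fold and 7 intervals above 1. Over all genes with at least 10 UMIs, 2.44% of intervals lay above 1 and 4.31% below. mt-Nd2 was the highest at 1.55 (1.38 to 1.74) and mt-Nd5 the lowest at 0.779 (0.567 to 1.06). The median mitochondrial share per committed cell was 4.49% in control and 5.19% in foot shock. Rapid immediate early genes were sparse, with 6 of 30 measured, a median log2 ratio of 0.10 and 1 interval below 1, that of Jund at 0.61 (0.362 to 0.991). Klf6 was the highest of the 4 genes with at least 20 UMIs, at 1.28 (0.495 to 3.13).

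The differentiation lists had medians closer to 0. Ranges of lists from here on cover genes with at least 20 UMIs in committed cells. Over all genes with at least 10 UMIs, 4.09% were at least 2-fold higher and 11.9% at most 0.5-fold. The 8 myelin genes had a median log2 ratio of -0.00, from Mal at 0.765 (0.587 to 0.988) to Mog at 1.29 (1.00 to 1.65), and the late myelin list -0.01 over 30 genes, from Aspa at 0.371 (0.0934 to 1.09) to Gsn, an actin-severing protein gene, at 2.00 (1.16 to 3.43). The Mal ratio turned to 1.32 (0.801 to 2.15) among the cells with 3 or more marker UMIs and to 3.28 (1.38 to 8.17) with 2 marker genes required. Of the 229 control Mal UMIs, 46 lay in cells with 3 or more marker UMIs. Ptgds, a prostaglandin synthase gene that was 3662 CPM in mature control cells, had a ratio of 0.411 (0.268 to 0.61) in committed cells and of 0.583 (0.336 to 0.968) among those with 3 or more marker UMIs. The commitment list had a median of -0.06 over 37 genes with 1 past 2-fold lower and 0 higher, from Kif19a at 0.244 (0.063 to 0.683) to Rras2 at 1.85 (1.11 to 3.05). Genes typical of the stage, such as Fyn at 1.02 (0.887 to 1.17) and Tcf7l2 at 1.07 (0.897 to 1.26), had intervals that held 1.

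The precursor list had a median log2 ratio of -0.28 over 27 genes (-0.30 with the gene at 0 in a library set to its bound), 4 at most 0.5-fold and 4 intervals below 1, where 11.9% and 4.31% of all genes were. They ranged from Xylt1, which starts the sugar chains of proteoglycans, at 0.427 (0.193 to 0.852) to Gria3 at 1.46 (0.663 to 3.12). Within bins the median was -0.24 in the earliest (26 genes), -0.29 in the middle (16) and 0.81 in the latest (8), and with the 3 bins weighted the same it was -0.14. The lineage list had a median of -0.10 over 11 genes, from Cspg5, a neural chondroitin sulfate proteoglycan gene, at 0.326 (0.156 to 0.619) to Omg at 1.26 (0.584 to 2.62). The Cspg5 ratio turned to 2.15 (0.495 to 9.34) among cells with 2000 UMIs or more. Transcription factors had a median of -0.28 over 36 genes (-0.30 with the bound), 5 intervals below and 1 above 1, from Hes5 at 0.381 (0.115 to 1.00) to Zeb2, a repressor of BMP and Wnt signalling, at 1.30 (1.08 to 1.56), which was 0.990 among cells with 2000 UMIs or more. Matrix and adhesion genes had a median of -0.12 over 24 genes with 5 intervals below 1, from Cspg5 to Cntn2 at 1.25 (0.691 to 2.19).

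Signalling, lipid and cell cycle genes complete the lists. BMP, Wnt and Notch genes had a median of -0.17 over 17, from Znrf3 at 0.342 (0.0864 to 0.99) to Smad5 at 1.30 (0.619 to 2.64). Channels and receptors had a median of -0.33 over 23 genes, from Adgrb3 at 0.534 (0.13 to 1.66) to Gria3. Of the 23, 3 had intervals below 1, where 4.31% of all genes did. Cholesterol genes had a median of -0.06 over 22, from Sc5d at 0.427 (0.106 to 1.28) to Hmgcs1 at 1.40 (1.05 to 1.85), and Insig1, which restrains the pathway, stood at 0.52 (0.328 to 0.797). Sphingolipid and fatty acid genes had a median of 0.03 over 18, from Elovl6 at 0.41 (0.237 to 0.674) to Elovl5 at 1.47 (0.79 to 2.70), both fatty acid elongases. The cell cycle list had 3 measured genes and a median of 0.61, and the cycle inhibitors 7 and 0.31, from Cdkn1b at 0.763 (0.331 to 1.62) to Rb1 at 2.56 (1.01 to 6.62).

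The 10 genes furthest higher in foot shock were Dnajb1, Hiat1, Ddit4, Zmym1, Ntm, Eml1, Cnot3, Pik3c2a, Dctn2 and Sertad2. After Dnajb1 their ratios lay between 2.03 (1.40 to 2.94) for Sertad2 and 2.35 (1.22 to 4.54) for Hiat1, on 41 to 123 UMIs per gene. Ntm, one of the genes of the earliest bin, stood at 133 CPM in control against 295 CPM, for a ratio of 2.22 (1.49 to 3.30). Among the 10 furthest lower were D5Ertd579e, Wsb1, Tnrc6c, Erbb3, Nf1, Cspg5, Whsc1l1, Rnf10 and Kctd4, whose ratios ran from 0.219 (0.0569 to 0.607) for D5Ertd579e to 0.346 (0.119 to 0.828) for Kctd4. Erbb3, a neuregulin receptor of the lineage, stood at 123 CPM in control against 32.1 CPM, for a ratio of 0.262 (0.0916 to 0.611). Nf1, which encodes the Ras regulator neurofibromin, stood at 171 CPM in control against 48.2 CPM, for a ratio of 0.283 (0.124 to 0.569).

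Lists of other cell types had few UMIs in the committed cells, with the astrocyte list highest, and were not the same in the libraries. The microglia and macrophage list had 92 UMIs in control, 85 of them in 4 cells, and 2 UMIs in foot shock. Of its 12 genes, 2 and 10 were at 0. It stood at 231 and 10.7 CPM, against 94.0 and 291 CPM in free RNA. The astrocyte list had 235 UMIs in control (589 CPM, 0 of 12 genes at 0) and 80 in foot shock (429 CPM, 0 of 12 at 0). Cells with 3 or more of its UMIs were 17 and 5. Free RNA held the list at 722 and 606 CPM. In the earliest bin it stood above that, at 1315 and 1500 CPM, with 3 or more UMIs in 10 of 54 and 3 of 21 cells. The neuron list stood at 231 and 220 CPM, with 2 and 3 of its 14 genes at 0, below the free RNA at 2457 and 2026 CPM. Endothelial, mural, ependymal and epithelial lists had 0 to 8 UMIs in a library, with 3 to 8 of their 7 or 8 genes at 0. Epcam, Krt8 and Krt14 of the epithelial list were set to 0 by the selection and are no finding. The fibroblast and hemoglobin lists had 0 UMIs in both libraries. With cells of 3 or more UMIs of any such list left out, the median log2 ratio was 0.76 for the glucocorticoid list, 0.65 for the heat shock list and -0.39 for the precursor list.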

How the data were processed

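Single-cell suspensions were run on 10x 3' chemistry version 2. Per the submitters' processing notes, the deposited counts (UMIs per gene and barcode) came from Cell Ranger 2 with genome build mm10; which annotation release they used is not given in the sources at hand. Both raw matrices of 737280 barcodes were used without normalization, and a level is a gene's UMIs per 1000000 (CPM), summed over the cells of a group. Gene positions came from GENCODE vM21, which held 28339 of 28692 gene identifiers. The members and gene lists were chosen with earlier results of these data known. With 1 library per group no test was run: levels carry exact Poisson intervals, shares exact Clopper-Pearson intervals and ratios exact conditional intervals, all at 95%. Genes needed 40 UMIs for counts over all genes and 10 for lists. The text names the 4 markers, list genes with at least 20 UMIs in committed cells, the 10 genes furthest in each direction for foot shock and for bin order, and the 15 genes furthest above both comparison groups; a few genes that these rules pick are not reported here. Free RNA was the sum of barcodes with 10 to 100 UMIs. On simulated Poisson counts for foot shock against control over 2502 genes, intervals held a true 4-fold difference for 94% of 50 genes. They held a true 2-fold one for 94%. The 2-fold rule called 100% and 40% of them, and 1.61% of 2302 unchanged genes in either direction. These counts follow the model that the intervals assume and hold no spread between animals or cells. They therefore give no error rate for the real comparison. Alternatives covered cell and gene minimums, marker rules, doublets, bins, scaling and free RNA. Tools were Python 3.11.15, numpy 2.4.6, pandas 2.3.3, scipy 1.17.1, scanpy 1.11.5 (Scrublet), matplotlib 3.10.9, R 4.3.3 and edgeR 4.0.16, the last for TMM factors alone.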

Additional observations from a re-analysis of the deposited data

Results flagged for a closer look

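Among list genes with at least 20 UMIs in committed cells, 4 had ratios on opposite sides of 1 in committed cells and in a comparison group. The ratios are foot shock to control, and both intervals were clear of 1. Genes outside the lists were not screened. None of these differences was tested, since each group has 1 library.

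Mal, a myelin proteolipid gene, had a ratio of 0.765 (0.587 to 0.988) in committed cells, from 574 to 439 CPM, and of 3.60 (2.04 to 6.44) in precursor comparison cells, from 114 to 411 CPM. Ndrg1, a gene of mature myelinating glia, had 0.607 (0.38 to 0.939) in committed cells and 6.34 (2.03 to 23.3) in precursors, the latter on 5 control and 11 foot shock UMIs. Mbp, which encodes myelin basic protein, had 0.927 (0.865 to 0.992) in committed cells, 1.85 (1.33 to 2.57) in precursors and 1.04 (1.01 to 1.07) in mature cells, so its ratio was below that of both neighbours. Zeb2, a transcription factor gene, had 1.30 (1.08 to 1.56) in committed cells and 0.899 (0.822 to 0.983) in mature cells. Mal and Mbp are also among the 8 genes that ranked the committed cells. Single precursor comparison cells reached myelin shares of 3.70% in control and 4.82% in foot shock, against medians of 0.0758% and 0.084%, and the part of those cells in the precursor ratios was not tested.

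In committed cells some of these directions turned with the rule that chose the cells. With 3 marker UMIs required, Mal was 1.32 (0.801 to 2.15) and Ndrg1 1.61 (0.634 to 3.98), the latter on 13 control and 10 foot shock UMIs, while Mbp was 0.879 (0.814 to 0.949) and Zeb2 1.41 (1.16 to 1.72). With 2 marker genes required, Mal was 3.28 (1.38 to 8.17). Zeb2 was 0.990 at 2000 UMIs per cell, and the mean of single-cell levels gave 1.02 for Mbp.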

How the results depend on the processing

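With 1 library per group the spread between animals is unknown, every interval covers counting error only, and the 2 bins with fewest foot shock cells held 21 and 26. No paired analysis was possible because the groups share only replicate number 1. The alternatives that weight the bins the same, that use the earliest and middle bins alone and that require 3 marker UMIs without new bins were chosen after seeing the data. Of the values behind the main comparisons, 144 stayed within the limits for being unchanged and 59 moved. Of those of single genes and lists, 304 stayed, 24 moved and 7 reversed. At 2000 UMIs per cell Cspg5 was 2.15 and Zeb2 0.990. Mal was 1.32 with 3 marker UMIs, 3.28 with 2 marker genes and 1.32 in the earliest and middle bins alone, Ndrg1 was 1.61 with 3 marker UMIs, and Mbp was 1.02 as the mean over cells. The cause of these moves was not tested, except where fewer or more genes were counted.

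With 3 marker UMIs required, control committed cells were 2.13% of accepted and 8.93% of lineage cells; with 2 marker genes, 1.85% and 7.87%; without cells holding other types' markers, 2.30% and 9.59%; and with 1 Pdgfra UMI allowed, 3.55% and 14.1%. The foot shock shares were 2.01% and 11.3% at 500 UMIs per cell and 1.07% and 6.23% with 2 marker genes, and 13.2% of lineage cells at 2000 UMIs per cell. At 2000 UMIs per cell the control share of the lineage was 12.6%, so that the order of the libraries turned. With 2 bins, 51.0% of control and 48.1% of foot shock cells were in the earlier bin.

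Genes at least 2-fold higher in foot shock were 26 with TMM, 46 with free RNA subtracted, 80 at 20 UMIs per gene, 3 at 100, 1759 at 1 and 123 at a fold of 1.5. Genes lower were 308 at 20 UMIs, 6 at 100, 3408 at 1, 335 at a fold of 1.5 and 49 in the earliest and middle bins alone.

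The Sgk1 ratio of the latest bin was 2.31 at 500 UMIs per cell, 8.92 at 2000, 1.81 with 3 marker UMIs, 1.21 with 2 marker genes and 2.49 with 1 Pdgfra UMI allowed. Over all committed cells Sgk1 was 1.24 with 2 marker genes and 1.28 in the earliest and middle bins alone.

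Against precursors, genes higher and lower were 101 and 15 at 2000 UMIs per cell, 272 and 141 at 20 UMIs per gene, 57 and 14 at 100, 999 and 1664 at 1, and 242 and 95 at a fold of 1.5. Against mature cells, genes higher were 199 at 2000 UMIs per cell, 635 at 20 UMIs per gene, 124 at 100, 1747 at 1 and 758 at a fold of 1.5. Genes lower were 137 at 2000 UMIs per cell, 371 with 3 marker UMIs, 434 with 2 marker genes, 1353 at 1 UMI per gene and 482 at a fold of 1.5. Between bins, genes higher in the latest were 63 at 2000 UMIs per cell, 62 with 3 marker UMIs and 52 with 2 marker genes, and genes lower were 35 with 3 marker UMIs, 22 with 2 marker genes and 34 with 2 bins.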

Other observations

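The latest bin held cells of unlike marker content. The cells were divided by their marker UMIs after the values had been seen, so what follows is a description. In control, 23 latest-bin cells had exactly 2 marker UMIs and 22 had 3 or more. Fyn stood at 89.2 CPM (35.9 to 184) in the former and 924 CPM (751 to 1123) in the latter. Tcf7l2 stood at 140.2 CPM (70.0 to 251) and 1468 CPM (1249 to 1715), and Nfasc at 1338 CPM (1094 to 1620) and 4304 CPM (3922 to 4713). Ptgds, a gene of mature cells, had the reverse order, at 1070 CPM (854 to 1325) and 388 CPM (280 to 524).

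Foot shock divided the same way. Its 10 latest-bin cells with 2 marker UMIs held Fyn at 195 CPM (78.3 to 401) and Tcf7l2 at 278 CPM (133 to 512), and its 20 cells with 3 or more held them at 1233 CPM (987 to 1521) and 1544 CPM (1268 to 1863). Sgk1 was higher in foot shock in both kinds of cell. It stood at 51.0 CPM (13.9 to 130) in control and 473 CPM (275 to 757) in foot shock among cells with 2 marker UMIs. Among cells with 3 or more it stood at 166 CPM (98.5 to 263) and 581 CPM (417 to 788).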
